A study of Homo sapiens with 4 samples.

Results

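The 10 genes described here encode chromatin proteins with a CXXC zinc finger, namely KMT2A, KMT2B, CXXC1, KDM2A, KDM2B, FBXL19, DNMT1, TET1, TET3 and CXXC5. They were chosen by name from 20037 protein-coding genes, after KMT2A, FBXL19 and KMT2B had been seen among the best-ranked regions of these data, so peak scores at their ends are given as a description without a test. The study immunoprecipitated MTA1 from cross-linked HCT116 cells, an established human colorectal carcinoma line of epithelial form. MTA1 belongs to NuRD, a complex that moves nucleosomes and removes acetyl groups from histones. It held 2 libraries of MTA1 chromatin immunoprecipitation (ChIP) and 2 of input chromatin made without antibody. All 4 came from the same line, with no treatment or genetic change in the labels, which do not say whether the replicates were separate cultures. The authors deposited 2 peak lists, each of which set 1 ChIP library against the control of the same number, and they are called list 1 and list 2. On chromosomes 1 to 22, X and Y, list 1 held 32003 peaks and list 2 held 30939, of which 35 and 19 lay at or inside the 10 genes. Each peak has a score, the authors' own value, which was 50 or more in both lists. The sources used here do not state its scale, and ranks and scores were therefore read within a list only. No read counts were analysed, so depth is unknown, and a peak in 1 list alone is a difference between 2 calls without a measured error. Expression was not measured, so the label of the line was not checked against marker genes.

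The CXXC zinc finger binds DNA at CpG dinucleotides that are not methylated, and proteins that carry it bring enzymes to CpG islands, the CG-rich stretches found at many promoters. KMT2A and KMT2B methylate histone H3 at lysine K4, a mark of active and poised promoters, and CXXC1 guides the related SETD1 complexes to the same kind of site. KDM2A and KDM2B remove methyl groups from lysine K36 of histone H3, and KDM2B also brings the Polycomb complex PRC1.1 to CpG islands. FBXL19 is an F-box protein of the same family without the demethylase domain. DNMT1 copies DNA methylation after replication, TET1 and TET3 oxidise methylated cytosine, and CXXC5 is a small CXXC protein known as an inhibitor of Wnt signalling.

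Sequences at annotated starts came from RefSeq (GRCh38.p14), which gives the 250 bases before and the 50 bases after each start, 5′ to 3′ on the strand of the gene. All 10 genes matched, with 26 such windows in all. CG dinucleotides are in capitals below because they are the bases that the CXXC finger reads. Binding of a CXXC protein to these windows was not measured. The first 3 windows lay under peaks of both lists. They are KMT2A at chr11:118436242-118436541 (+ strand), KMT2B at chr19:35717753-35718052 (+) and the first of 4 starts of FBXL19 at chr16:30922601-30922900 (+).
KMT2A: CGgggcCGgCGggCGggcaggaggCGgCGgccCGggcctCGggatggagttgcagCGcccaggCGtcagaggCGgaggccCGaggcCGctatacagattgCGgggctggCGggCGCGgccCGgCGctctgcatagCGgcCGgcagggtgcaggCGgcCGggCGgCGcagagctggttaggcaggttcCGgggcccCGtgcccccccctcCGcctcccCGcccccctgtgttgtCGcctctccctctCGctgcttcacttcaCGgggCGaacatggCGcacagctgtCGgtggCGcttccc
KMT2B: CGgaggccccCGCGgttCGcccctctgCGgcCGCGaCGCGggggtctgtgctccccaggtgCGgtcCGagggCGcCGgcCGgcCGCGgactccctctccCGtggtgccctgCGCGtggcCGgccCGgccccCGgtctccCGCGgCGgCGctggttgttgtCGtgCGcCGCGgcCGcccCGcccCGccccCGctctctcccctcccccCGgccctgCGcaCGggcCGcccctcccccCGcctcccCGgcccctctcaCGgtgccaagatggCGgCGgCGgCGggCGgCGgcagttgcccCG
FBXL19: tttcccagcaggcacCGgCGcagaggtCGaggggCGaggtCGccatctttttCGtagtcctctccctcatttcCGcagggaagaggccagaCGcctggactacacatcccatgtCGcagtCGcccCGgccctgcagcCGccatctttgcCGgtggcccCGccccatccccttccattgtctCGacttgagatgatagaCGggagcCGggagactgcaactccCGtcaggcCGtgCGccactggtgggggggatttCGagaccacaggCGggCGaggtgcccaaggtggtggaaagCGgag
The next 3 were covered at least in part by a list 1 peak alone, CXXC1 and CXXC5 in full and TET1 in its last 46 bases only. They are CXXC1 at chr18:50287643-50287942 (- strand), the first of 3 starts of TET1 at chr10:68560087-68560386 (+), and the sixth of 7 starts of CXXC5 at chr5:139659305-139659604 (+).
CXXC1: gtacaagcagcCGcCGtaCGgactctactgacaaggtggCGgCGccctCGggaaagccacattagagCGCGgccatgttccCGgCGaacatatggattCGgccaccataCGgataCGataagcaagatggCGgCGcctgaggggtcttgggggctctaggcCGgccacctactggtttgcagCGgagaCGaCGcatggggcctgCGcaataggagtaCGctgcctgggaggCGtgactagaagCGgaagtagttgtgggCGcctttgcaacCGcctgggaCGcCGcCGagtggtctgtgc
TET1: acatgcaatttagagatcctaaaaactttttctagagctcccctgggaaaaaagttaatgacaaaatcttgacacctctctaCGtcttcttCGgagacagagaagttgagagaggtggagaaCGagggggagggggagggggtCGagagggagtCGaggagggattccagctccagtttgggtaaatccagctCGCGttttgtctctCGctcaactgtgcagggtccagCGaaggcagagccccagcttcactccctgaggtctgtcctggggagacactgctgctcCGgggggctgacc
CXXC5: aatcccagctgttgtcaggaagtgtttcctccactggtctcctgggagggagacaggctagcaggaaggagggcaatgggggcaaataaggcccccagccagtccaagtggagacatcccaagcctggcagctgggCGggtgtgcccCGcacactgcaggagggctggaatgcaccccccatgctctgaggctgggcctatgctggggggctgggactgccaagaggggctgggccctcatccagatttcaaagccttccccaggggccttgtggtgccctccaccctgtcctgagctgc
The last 2 are rich in CG and lay under no peak. They are the first start of KDM2A at chr11:67119013-67119312 (+) and the first start of TET3 at chr2:73984660-73984959 (+).
KDM2A: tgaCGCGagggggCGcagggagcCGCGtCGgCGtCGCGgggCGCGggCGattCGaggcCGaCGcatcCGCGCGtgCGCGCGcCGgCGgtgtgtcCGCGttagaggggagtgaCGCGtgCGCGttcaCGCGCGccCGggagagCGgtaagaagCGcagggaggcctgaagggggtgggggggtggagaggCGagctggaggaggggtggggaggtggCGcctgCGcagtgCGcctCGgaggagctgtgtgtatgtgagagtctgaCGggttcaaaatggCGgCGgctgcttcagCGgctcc
TET3: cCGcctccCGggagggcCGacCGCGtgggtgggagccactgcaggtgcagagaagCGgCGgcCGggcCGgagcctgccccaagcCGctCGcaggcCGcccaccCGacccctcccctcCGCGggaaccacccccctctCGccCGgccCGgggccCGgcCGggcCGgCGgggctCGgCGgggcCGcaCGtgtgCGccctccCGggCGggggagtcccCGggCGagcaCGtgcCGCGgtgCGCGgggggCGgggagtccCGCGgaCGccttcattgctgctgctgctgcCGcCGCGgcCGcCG

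The first question was which of the genes carried an MTA1 peak at an end, meaning a peak midpoint within 1000 bp of either annotated end. List 1 had such a peak at 7 of the 10 genes, where the share of all protein-coding genes was 24.3%. List 2 had one at 3 of the 10, where the share of all protein-coding genes was 6.28%. A shared region, a merged interval with a peak of each list, lay at an end of the same 3 genes, KMT2A, KMT2B and FBXL19, against 2.00% of all protein-coding genes. Since these peaks were known when the genes were picked, nothing is read from the counts. Each of the 7 genes had a single list 1 peak at its ends. The median score of all gene-end peaks was 71.71 in list 1 and 62.63 in list 2. At 6 genes it lay at the 5′ end, and at CXXC5 it lay at the 3′ end. KDM2B, DNMT1 and TET3 had no peak of either list at an end.

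**Figure D1:**
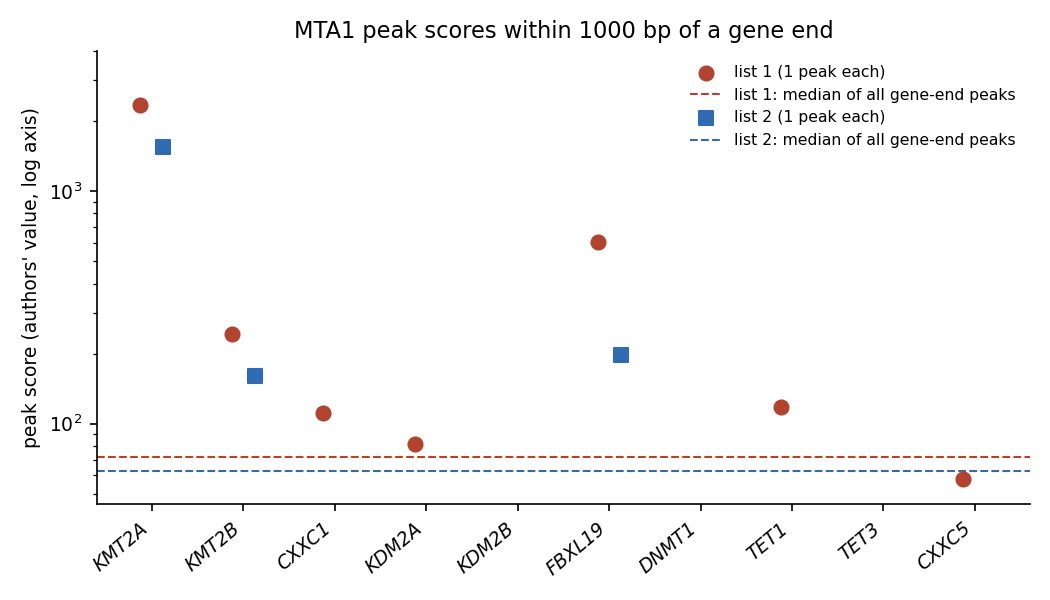
Score of each peak within 1000 bp of a gene end (log axis), with list 1 as circles and list 2 as squares, and dashed lines at the median of all gene-end peaks of each list. KMT2A stands highest in both lists, 7 genes have a list 1 peak, 3 have a list 2 peak, and CXXC5 lies below the list 1 median.

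The KMT2A peaks scored 2348.07 in list 1 and 1544.41 in list 2. The first was rank 1 of list 1, in which rank 2 scored 980.63 and lay at CHMP4B. The KMT2A peak of list 2 was rank 2, and the remaining 5 of the 6 best-scoring list 2 peaks lay 87.9 to 2318.1 kb from the nearest end of a protein-coding gene. Among peaks at gene ends, KMT2A was first of 4667 in list 1 and first of 1174 in list 2. The list 1 peak ran from 118435723 to 118436843 of chromosome 11 (1121 bp), and the list 2 peak from 118436065 to 118436887 (823 bp). They overlapped by 779 bp, which is 69.5% of the list 1 peak and 94.7% of the list 2 peak. Their midpoints were 209 and 16 bp upstream of the annotated start, and both peaks covered the whole window printed above. No other annotated gene of any type had an end within 1000 bp of either midpoint. KMT2A is 90.3 kb long, and apart from this site it held no list 1 peak and 1 list 2 peak. That peak lay 29.8 kb downstream of the start with a score of 52.49. The next list 1 peak on the chromosome was 96.0 kb from the peak at the start, and the next list 2 peak was 8.5 kb from it, outside the gene.

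KMT2B, the closest relative of KMT2A among the 10, had the list 1 score 242.71, which was rank 151, and the list 2 score 160.07, which was rank 132. Its list 1 peak spanned 35717164 to 35718507 of chromosome 19, and its list 2 peak 35717147 to 35718151. The overlap of 988 bp made up 73.5% of the first and 98.3% of the second. The 3′ end of ZBTB32, a zinc finger gene on the same strand, lay 797.5 bp from the list 1 midpoint and 611 bp from the list 2 midpoint, so both peaks were nearer to the start of KMT2B. Unlike KMT2A, KMT2B also held 2 interior list 1 peaks. The stronger of them, at 35723486 to 35725232, was 6.4 kb into the gene, scored 154.53 and was 1747 bp wide. List 2 had no peak there, and its nearest one was 5.3 kb away.

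CXXC1, on the minus strand of chromosome 18, had a list 1 peak from 50287386 to 50288272 with a score of 111.65 (rank 2705). Its midpoint was 137 bp upstream of the start. The nearest list 2 peak was 98.6 kb away. CXXC1 is the shortest of the genes (5.3 kb), and it had no peak in its interior.

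Among the F-box genes, FBXL19 had the strongest peaks, with scores of 604.83 in list 1 (rank 5) and 197.45 in list 2 (rank 99). The list 1 peak extended from 30921783 to 30923766 of chromosome 16 (1984 bp), wider than 97.8% of list 1. The list 2 peak from 30921798 to 30923530 lay wholly inside it and was wider than 99.9% of list 2. The list 1 peak covered 3 of the 4 RefSeq starts of FBXL19. The list 2 peak covered the first 2 starts and 209 of the 300 bases of the third window, and it ended before the third start. The antisense transcript FBXL19-AS1 starts within the same peaks, 494.5 and 605 bp from their midpoints. ChIP does not tell strands apart, so the peaks cannot be given to either transcript. At KDM2A, the list 1 peak at 67118055 to 67118909 of chromosome 11 scored 81.77, and it ended 354 bp before the annotated start. Its midpoint was 781 bp from that start and 134 bp from the start of the long non-coding LOC107984341, which runs the opposite way. The KDM2A window was not covered. KDM2B had no end peak. Its annotated 5′ end lies 1256 bp beyond its first RefSeq start, and none of its 4 start windows was covered.

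DNMT1 had no peak at either end, and its single start window on chromosome 19 was not covered in either list. TET1 had a list 1 peak from 68560341 to 68561240 of chromosome 10 with a score of 117.77 (rank 2249), which began 4 bp after the start and covered 46 bases of the first window. A second list 1 peak (66.82) followed at 1.7 kb. The nearest list 2 peak (59.55) lay on the other side of the start, with its midpoint 1172 bp upstream. No base was shared between the lists, and 980 bp separated the nearest edges. Neither of the 2 RefSeq starts of TET3 lay under a peak. CXXC5 had a list 1 peak at its 3′ end with a score of 57.83 (rank 21522), and a further one (66.36) with its midpoint 1111 bp beyond that end. The peaks nearest to the limit of 1000 bp were thus KDM2A at 781 bp inside it, and CXXC5 at 1111 bp and TET1 of list 2 at 1172 bp outside it.

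**Figure D2:**
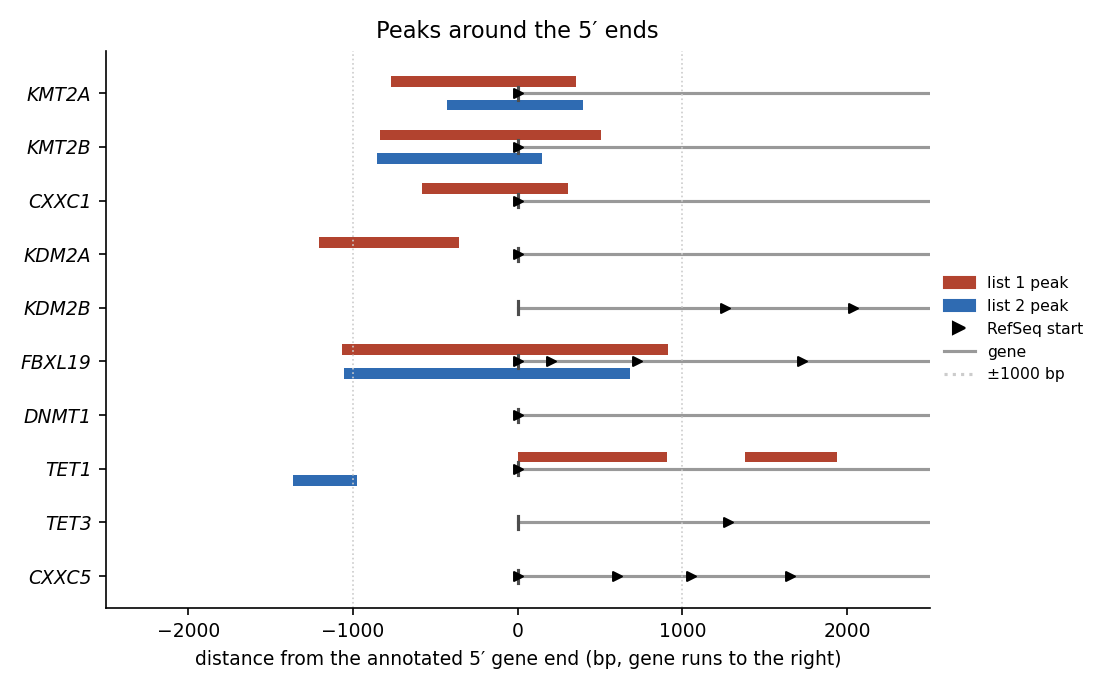
Extent of list 1 (upper bars) and list 2 (lower bars) peaks around the annotated 5′ end of each gene, in bp along the gene, with RefSeq starts as arrowheads and dotted lines at 1000 bp on each side. Bars of both lists overlap at KMT2A, KMT2B and FBXL19, and the TET1 peaks of the lists lie on opposite sides of the start.

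The second question was how peaks were spread inside the genes, at midpoints over 1000 bp from both ends. List 1 had interior peaks in 8 of the 10 genes (37.4% of all protein-coding genes with an interior), and list 2 in 6 of the 10 (35.7%). Long genes offer more room for peaks, and the 10 genes run from 5.3 to 173.8 kb, so these shares are not compared further. In all, 28 list 1 peaks and 16 list 2 peaks lay inside, and none of them overlapped a peak of the other list. Overlap was rare in the whole lists too, where 32003 list 1 and 30939 list 2 peaks gave 1114 shared regions. The lack of overlap inside these genes is therefore not read as a trait of them. A shared region lay inside 0 of the 10 genes, against 2.49% of all protein-coding genes with an interior. Interior scores ran from 50.78 to 154.53 in list 1 (median 73.9) and from 51.35 to 105.13 in list 2 (median 57.0), where the medians of the whole lists were 64.08 and 60.62.

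KDM2B, the longest of the genes (173.8 kb), had the most interior list 1 peaks. There were 8, with scores of 55.16 to 147.41, and 7 of them fell between 44.7 and 109.0 kb from its 5′ end. The best-scoring, at 121489673 to 121490834 of chromosome 12, was 92.0 kb from that end. List 2 had 3 peaks in KDM2B, with scores of 57.6, 65.34 and 73.66. The closest approach of both lists in any interior was here. The list 2 peak at 121493816 to 121494202 and the list 1 peak at 121494438 to 121494993 were separated by 235 bp. DNMT1 held 5 list 1 peaks (50.78 to 91.62), of which 3 lay together between 40.4 and 45.4 kb from its start, and 2 list 2 peaks (51.55 and 55.36). TET3 held 4 list 1 peaks (52.04 to 74.48) and 3 list 2 peaks (53.85 to 67.65). TET1 held 3 and 4, and its best interior list 1 peak, at 68627411 to 68628266 of chromosome 10, scored 134.54. KDM2A held 1 and 3, and its list 2 peak at 67218790 to 67219138 of chromosome 11 had the highest interior score of list 2 (105.13). FBXL19 held 3 list 1 peaks (52.54, 70.03 and 101.52), all within 7.5 kb of its 5′ end, and no list 2 peak. CXXC5 held 2 list 1 peaks and no list 2 peak. Of the 44 interior peaks, the CXXC5 peak at 139659037 to 139660387 of chromosome 5 (score 75.26) was the only one that covered a RefSeq start window of its own gene, the sixth. The other CXXC5 peak (96.00) reached the start window of LOC124901084.

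**Figure D3:**
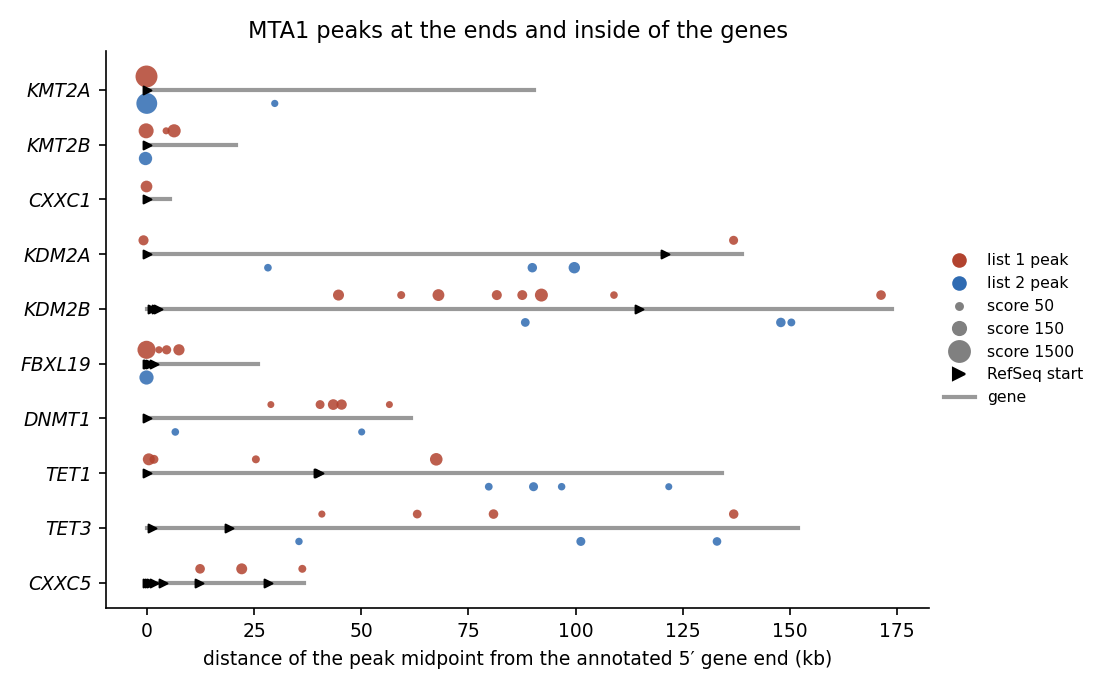
Position of every peak at the ends and inside of the genes, in kb from the annotated 5′ end, with list 1 above and list 2 below each gene, dot area growing with the logarithm of the score, and RefSeq starts as arrowheads. KMT2A has its large dots at the start alone, and KDM2B has 8 list 1 peaks spread through its interior.

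Interior density was set beside the surroundings of each gene. Over a joint interior of 819.3 kb, list 1 had 3.42 peaks per 100 kb and list 2 had 1.95, against 1.34 and 1.25 over the interiors of all protein-coding genes. In the 500 kb on each side of the genes, the densities were 2.79 for list 1 and 2.20 for list 2. The flanks counted every peak, at ends of other genes, in them and between them. Interior counts left out peaks within 1000 bp of the gene's own ends, so the measures are not quite alike. List 1 was denser inside than beside the gene at 7 of the 10. The difference was largest at FBXL19 (12.53 against 4.80 peaks per 100 kb), KMT2B (10.6 against 3.70) and DNMT1 (8.39 against 3.30). TET1 had lower values on both sides (2.27 against 0.60). List 1 was sparser inside at KMT2A (0 against 1.80), CXXC1 (0 against 0.30) and KDM2A (0.73 against 5.40). List 2 was denser inside at 3 of the 10, DNMT1, KDM2A and TET3. These rates rest on 0 to 8 peaks for each gene and have no replicate error. The copy number of these chromosomes in HCT116 was not analysed.

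**Figure D4:**
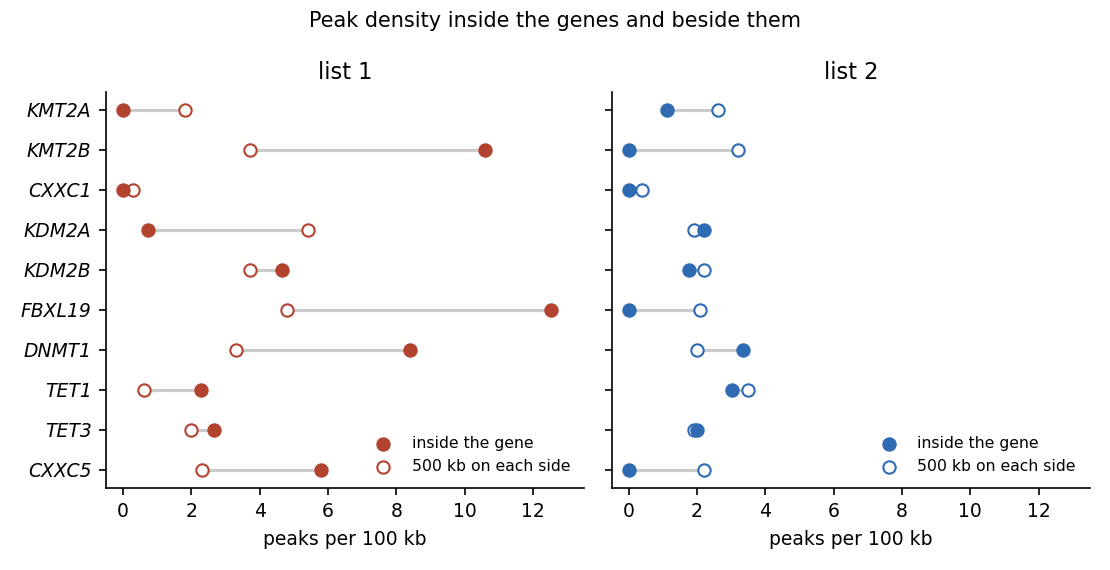
Peaks per 100 kb inside each gene (filled) and in the 500 kb on each side (open), for list 1 on the left and list 2 on the right, each from a single list without error bars. In list 1 the filled dot lies to the right at 7 genes, and in list 2 at 3.

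The third question was whether the start windows under peaks were alike in sequence. Peaks of list 1 covered at least 1 base of 8 of the 26 windows (16.2% of 22183 windows of protein-coding genes), and those of list 2 covered 5 (2.79%), all 5 in both lists (1.28%). Of these 5 windows, 3 belong to FBXL19, and its first and second windows share bases. CG counts of the 5 ran widely. They were 48 in KMT2B and 36 in KMT2A, more than in 97.5% and 83.7% of all windows, but 24, 17 and 15 in FBXL19, where the median of all windows was 21. The CXXC1 window held 28 CG, the first TET1 window 10, and the sixth CXXC5 window 2. Windows with many CG were more often covered across all genes. Among windows with 0 to 7 CG, list 1 covered 2.51% of all and 1 of the 3 of the CXXC genes, and list 2 covered 0.173% and 0 of 3. With 8 to 21 CG, list 1 covered 15.8% of all and 3 of 10, and list 2 covered 1.67% and 2 of 10. With 22 to 31 CG, list 1 covered 22.6% of all and 2 of 4, and list 2 covered 3.19% and 1 of 4. With 32 to 69 CG, list 1 covered 24.8% of all and 2 of 9, and list 2 covered 6.37% and the same 2 of 9, KMT2A and KMT2B. The other 7 windows of this class belong to KDM2A, KDM2B, TET3 and CXXC5. In KDM2A, with 44 CG, and TET3, with 45 CG, the first window was nearly as rich as that of KMT2B and lay under no peak. A high CG count was thus neither shared by all covered windows nor limited to them.

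**Figure D5:**
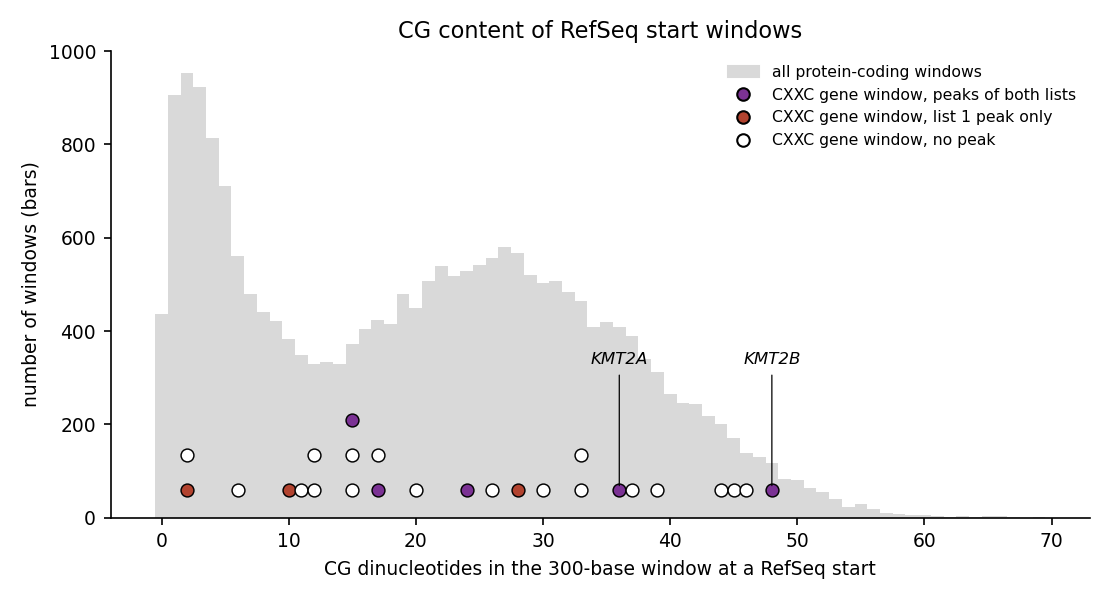
Number of CG dinucleotides in the 300-base windows at RefSeq starts, with grey bars for all 22183 windows of protein-coding genes and circles for the 26 windows of the CXXC genes, stacked only to keep them apart. Windows under peaks of both lists run from 15 to 48 CG, and windows without a peak run from 2 to 46 CG.

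Short motifs were counted on both strands as exact letters. The GC box (GGGCGG) occurred in 16 of the 26 windows and in 56.3% of all windows. It was present 5 times in KMT2B, 3 times in KMT2A and once in the first FBXL19 window, and it was absent from CXXC1 and the first TET1 window. GGAAG, the core that ETS factors bind, occurred in 19 of 26 (73.7% of all), CCAAT in 8 (34.7%), TATAAA in 2 (9.5%) and CACGTG, an E-box, in 2 (8.3%). No CCAAT or CACGTG occurred in the 5 windows under peaks of both lists, and TATAAA occurred in 1 of them, the second FBXL19 window. Matches of different motifs may share letters. A match is a description of letters and not a binding site.

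The fourth question was how partners of these proteins compare, in 3 lists of 42 genes. Among 18 genes of the H3K4 methyltransferase complexes, 8 had a list 1 peak at an end (24.3% of all protein-coding genes), 2 had a list 2 peak (6.28%) and 1 had a shared region (2.00%). The shared region lay at SETD1A, the methyltransferase of 1 of the SETD1 complexes that CXXC1 belongs to. Its list 1 peak (475.79, rank 19) had the midpoint 95.5 bp from an end of SETD1A, and its list 2 peak (123.95, rank 378) 54 bp. The distance of SETD1A from the 10 genes was not examined, so this region is not read as separate from theirs. The other list 2 peak was at HCFC2 (54.05). SETD1B, the related methyltransferase, had no list 2 peak at an end. Its list 1 peak scored 63.86 (rank 16145), with the midpoint 800.5 bp from an end. Of 10 PRC1.1 partners of KDM2B, 1 had a list 1 peak (YAF2, 56.75) and 0 had a list 2 peak. Of 14 genes that write, read or remove DNA methylation, UHRF2 had a list 1 peak (71.19) and DNMT3A a list 2 peak (64.82). SETD1A is named because it has a shared region at an end, and the other genes are named after their values were seen. The lists themselves were chosen with earlier results of these data known. MBD1 and CXXC4, which also carry a CXXC finger, are in the last list and had no peak of either list at an end. Together 10 of the 42 partners had a list 1 peak at an end, 3 a list 2 peak and 1 a shared region.

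Nearness to KMT2A was taken in rank alone, as the sum of the best ranks at an end over both lists. It was computed across the 522 protein-coding genes with a peak of each list, and these peaks need not overlap. KMT2A had a sum of 3. The 5 genes nearest to it were TOR1AIP1 and LOC139427322 with 61 each at the same peaks, USP5 with 63, FBXL19 with 104 and ORMDL3 with 134. KMT2B was in place 15 with a sum of 283. The gap between KMT2A and the next gene was 58 rank places, and no test was made of it. The ranks count every peak of a list, also those far from genes. FBXL19, at rank 99 of list 2, was in place 9 of the 1174 gene-end peaks of that list. KMT2A was picked with its ranks known, so its first place here is not a separate result.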

How the data were processed

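MTA1 ChIP (2 libraries) and input (2 libraries) of HCT116 cells were sequenced in paired-end mode, per the labels' protocols. The submitters' processing notes name cutadapt, Bowtie2 and GRCh38 without versions. Peak names have the form that MACS writes, per the deposited files, and the sources used here give no caller version, settings or filters. Column 5 of each deposited list is a score that the authors' caller gave each peak; its scale is not stated. The lists were called per replicate, and pairing with a control was read from the shared number.

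Genes and starts came from RefSeq tables of GRCh38.p14. Positions are 1-based, overlap means at least 1 bp, and peaks on other sequences (39 in list 1, 140 in list 2) were left out. Strand came from the start windows. Counting was done in Python 3.11.15 with pandas 2.3.3 and tested on simulated peaks. The text names all 10 genes, genes with ends beside their peaks, and the 5 genes nearest to KMT2A in rank sum. It also names CHMP4B, at the rank 2 peak of list 1, and genes of the partner lists, all with their values known. The members and lists were chosen with earlier results of these data known, and start windows, CG classes by quartile and flanking densities were added after the peaks were seen. No test was made, since the calls hold no value per library. Protein sequences were not used here.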

Additional observations from a re-analysis of the deposited data

How the results depend on the processing

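Of 26 recounts under other settings, 24 stayed within 1.5 times the value reported. The settings were a window of 500 or of 3000 bp, any overlap with the window where the midpoint was used, the better-scoring 50% of each list, the 5′ end alone, and overlap of at least 50% of both peaks. The number of list 2 peaks inside the genes was 7 in the better-scoring 50% of list 2, against 16 in all of it, because fewer peaks enter by construction. The shared region at an end rests on both lists by definition. Leaving out a replicate gives the genes with a peak in the remaining list, from 3 (without replicate 1) to 7 (without replicate 2). KMT2A, KMT2B and FBXL19 kept their shared region under all 6 alternatives that keep both lists. List 1 peaks at an end were found at 6 to 8 genes, with KDM2A lost at 500 bp, CXXC5 lost at the 5′ end alone and in the better-scoring 50%, and KDM2B gained at 3000 bp. TET1 gained a list 2 peak at 3000 bp and with any overlap. No paired analysis was possible because the deposited lists hold peak calls and no values per library. Depth is unknown, so a missing list 2 peak cannot be told apart from a call below the threshold.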
